A study of Mus musculus with 21 samples.

Results

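The 10 genes described here encode receptors and ligands that guide the axons of olfactory sensory neurons (OSN): the neuropilins Nrp1 and Nrp2, the plexins Plxna1 and Plxna3, the semaphorins Sema3a, Sema3f and Sema7a, the ephrin Efna5, its receptor Epha5, and the Slit receptor Robo2. They were taken by gene symbol from the 22786 genes present in both deposited expression tables, and each of the 10 was found in both. Cells of the main olfactory epithelium were sorted from transgenic mice, and each mouse carried a tetracycline-responsive (tetO) construct that marks cells with mCherry. In the HT mice (genotype gg8tTA; OMPtTA; tetO-HyperTRIBE_mCherry) the construct encoded HyperTRIBE, an RNA-editing domain, without a fusion partner. In the MexHT mice (gg8tTA; OMPtTA; tetO-Mex3a_HyperTRIBE_mCherry) it encoded the RNA-binding protein Mex3a joined to HyperTRIBE. A further set of MexHT mice carried the gg8tTA driver without OMPtTA (gg8tTA; tetO-Mex3a_HyperTRIBE_mCherry). The gg8tTA driver acts in immature OSN and OMPtTA adds mature OSN. Per the labels, the sorted mCherry-positive cells were therefore immature and mature OSN in the first 2 sets and immature OSN in the gg8 set, and the mCherry-negative cells of a mouse served as its internal control.

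The gg8+OMP table held 6 MexHT OSN, 3 HT OSN, 5 MexHT mCherry-negative and 3 HT mCherry-negative libraries, and the gg8 table held 2 MexHT OSN and 2 MexHT mCherry-negative libraries. Per the labels, an OSN and an mCherry-negative library with the same number came from the same mouse, except that MexHT OSN replicate 6 had no negative partner. The controls carry HyperTRIBE and the drivers too, no HT group exists for the gg8 driver, and ages and strains are not given in the labels. All gg8 libraries carry one date in their names and all gg8+OMP libraries another, so the driver and the date of the library cannot be told apart, and the tables were scaled separately.

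An OSN sends one axon to the olfactory bulb, where axons of neurons with the same odorant receptor meet. Neuropilins bind class 3 semaphorins, Nrp1 chiefly Sema3a and Nrp2 chiefly Sema3f, while plexins of the A class are the signalling partners that neuropilins need. Among OSN axons, Nrp1 and Sema3a are known for complementary gradients along one axis of the bulb, Nrp2 and Sema3f along another, and Efna5 and Epha5 for complementary levels between neighbouring axon groups. Robo2 reads Slit proteins during the first sorting of these axons, and Sema7a is a membrane-anchored semaphorin displayed on OSN axon endings.

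On mouse genome build mm10 the protein-coding member genes lie at chr8:128358604-128503363 (Nrp1), chr1:62703285-62818695 (Nrp2), chr6:89316314-89362620 (Plxna1), chrX:74329066-74344689 (Plxna3), chr5:13125414-13602565 (Sema3a), chr9:107681500-107710475 (Sema3f), chr9:57940112-57962865 (Sema7a), chr17:62604184-62881317 (Efna5), chr5:84054761-84417382 (Epha5) and chr16:73891839-74411825 (Robo2). Gm26811, on the strand opposite Plxna1, overlaps exon sequence of that gene. Whether the authors counted by strand is not given in the sources used here.

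RefSeq promoters of build GRCm38.p6 were matched for 8 of the 10 members, in 10 windows of the 250 bases before a transcription start. The windows of the 3 genes with the steepest differences between the constructs in OSN (below) are shown because they differ in base composition. All bases are printed in lower case, except that capitals mark the motif TAATTA, the core that many homeodomain factors bind.
Sema3a chr5:13396534-13396783, plus strand: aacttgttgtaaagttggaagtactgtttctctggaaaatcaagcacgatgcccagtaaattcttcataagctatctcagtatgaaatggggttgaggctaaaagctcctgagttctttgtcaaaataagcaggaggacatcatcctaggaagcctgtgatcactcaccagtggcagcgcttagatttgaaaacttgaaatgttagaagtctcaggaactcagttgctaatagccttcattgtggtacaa
Plxna3 chrX:74328816-74329065, plus strand: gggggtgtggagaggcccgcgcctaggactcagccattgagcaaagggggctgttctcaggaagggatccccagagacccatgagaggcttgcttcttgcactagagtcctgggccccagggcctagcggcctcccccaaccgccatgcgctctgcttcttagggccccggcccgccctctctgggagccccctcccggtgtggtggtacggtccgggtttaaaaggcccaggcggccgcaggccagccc
Epha5 chr5:84417383-84417632, minus strand: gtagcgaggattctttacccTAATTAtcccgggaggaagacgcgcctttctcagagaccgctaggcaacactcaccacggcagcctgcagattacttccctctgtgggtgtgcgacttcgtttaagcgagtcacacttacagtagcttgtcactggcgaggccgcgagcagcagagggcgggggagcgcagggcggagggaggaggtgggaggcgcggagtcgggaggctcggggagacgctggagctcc
The Plxna3 and Epha5 windows adjoin the start of the gene span given above. The Sema3a window lies inside its span, before an internal start, so its values do not describe the start of that span. GC content was 40.8% in the Sema3a window, 68.0% in that of Plxna3 and 62.4% in that of Epha5. The median was 52.4% over 32851 promoters of the same length. The Sema3a window held 2 CpG pairs, Plxna3 12 and Epha5 20, against a median of 6. TAATTA was searched on both strands and occurred in 4.84% of all promoters, and among the 10 member windows in that of Epha5, where it begins 230 bases before the start. The motif of the Ebf (Olf-1) factors, searched on both strands as TCCC and GGGA around any 2 bases, occurred in 0.779% of all promoters and in no member window.

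Recovered read totals ran from 7529648 to 15358109 per library, and member counts from 81 to 10953 reads. Mex3a itself was at 328.5 to 1271 TPM (a level per transcript length) in MexHT OSN and at 23.96 to 61.52 in HT OSN. In negative cells it was at 57.81 to 206.8 TPM in MexHT and 29.31 to 74.35 in HT mice. In the gg8 set it was at 460.3 to 1632 TPM in OSN and 101.1 to 211.3 in negative cells. Both OSN and negative libraries held OSN transcripts. The summed level of 14 mature OSN markers was 3821 to 9313 TPM in MexHT OSN, 13440 to 19440 in HT OSN, 1206 to 10240 in MexHT negative and 7934 to 15810 in HT negative cells. In the gg8 set it was 984 to 1874 TPM in OSN and 11250 to 19260 in negative cells, so the negative cells there were rich in mature OSN RNA. The 14 immature OSN markers summed to 6750 to 7542 TPM in MexHT OSN and 4759 to 4790 in HT OSN. Immune markers summed to 253 to 499 TPM in MexHT OSN and 806 to 3337 in HT OSN. In negative cells they summed to 7828 to 9974 TPM in MexHT and 4166 to 9246 in HT mice. The 10 connective tissue markers summed to 11650 to 24090 TPM in MexHT negative and 8003 to 19020 in HT negative cells. In OSN they summed to 132 to 251 TPM in MexHT and 90.4 to 326 in HT mice. In the gg8 set they summed to 5381 to 5674 TPM in negative cells and 43.5 to 61.2 in OSN. MexHT OSN replicates 5 and 6 stood apart: their progenitor and cell cycle markers summed to 1138 and 606 TPM against 294 to 327 in the other MexHT OSN libraries, and their mature markers to 3821 and 6030 against 7056 to 9313. Y-linked transcripts without Xist marked 2 of 3 HT OSN libraries, while 5 of 6 MexHT OSN libraries held both and 1 held Xist alone. Both were also present in 5 of 5 MexHT negative libraries of the gg8+OMP set and in 1 library of each HT and gg8 group. Whether such libraries hold RNA of more than 1 mouse was not tested. The pairing by mouse rests on the labels.

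**Figure D1:**
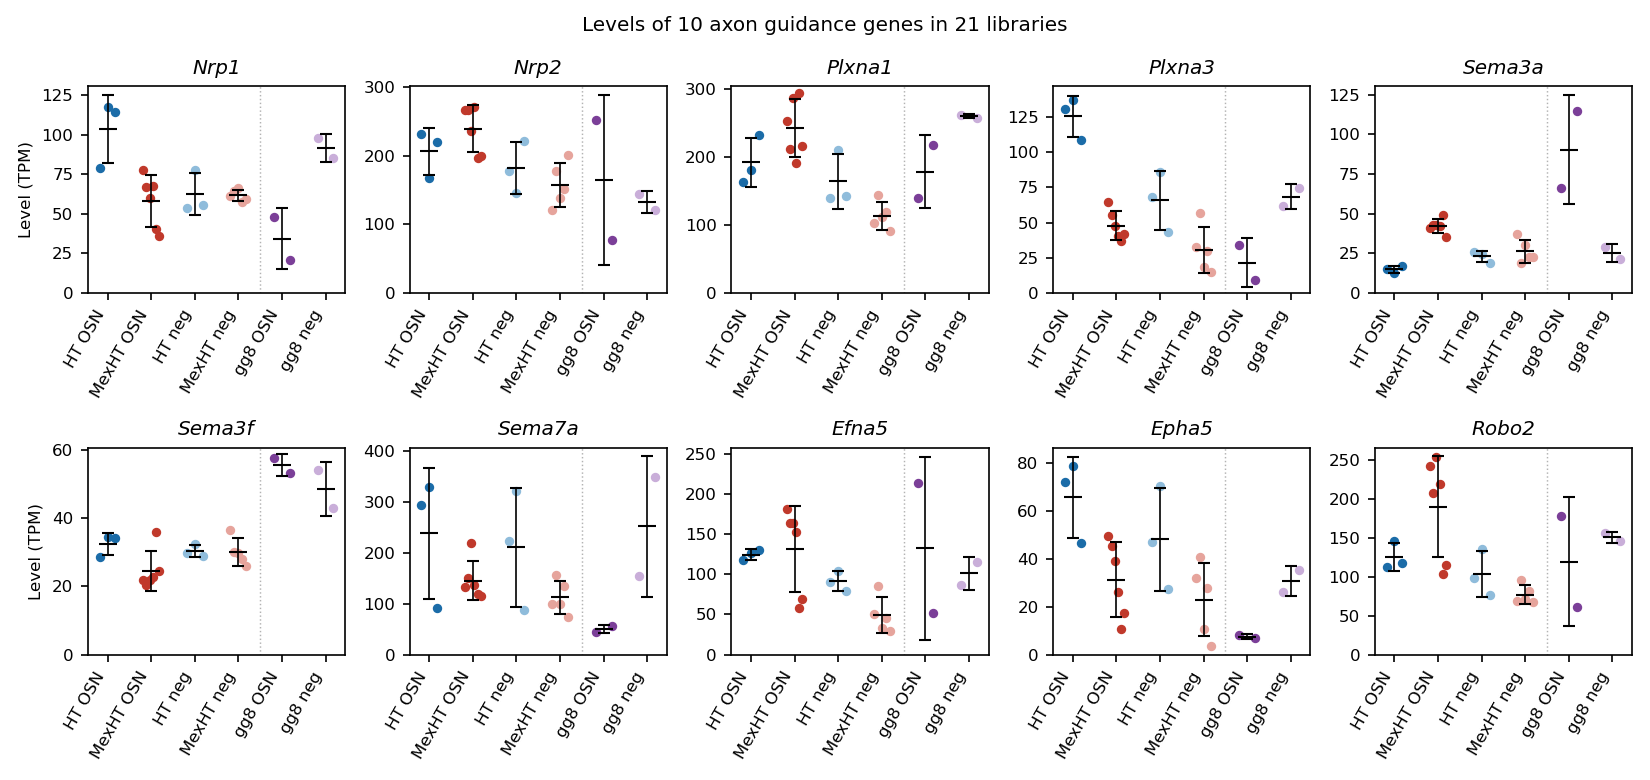
Level of each of the 10 genes (TPM, vertical axis from 0) in each of 21 libraries by group, with the group mean and SD as black bars; the dotted line separates the gg8 table from the gg8+OMP table, which were scaled separately. The 6 MexHT OSN points of Sema3a lie between 35.18 and 48.94 TPM, above the 3 HT OSN points at 12.73 to 17.09.

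All 10 genes were expressed in every group. In HT OSN the order by mean level was Sema7a, Nrp2, Plxna1, Plxna3, Robo2, Efna5, Nrp1, Epha5, Sema3f and Sema3a, from 238 to 14.9 TPM. Neighbours in that order overlapped between libraries except at 3 steps: Plxna1 stood above Plxna3, Epha5 above Sema3f and Sema3f above Sema3a. Sema3a was thus the lowest of the 10 in HT OSN, above 58.9% of the genes in the table. In MexHT OSN the order was Plxna1, Nrp2, Robo2, Sema7a, Efna5, Nrp1, Plxna3, Sema3a, Epha5 and Sema3f, from 242 to 24.5 TPM, and every neighbouring pair overlapped. Sema3a there lay above 75.1% of genes.

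The first comparison asks what differs in OSN that express Mex3a-HyperTRIBE against OSN that express HyperTRIBE alone. Sema3a rose, and Plxna3 and Nrp1 fell, while 7 of the 10 members did not pass the test. These 3 called members (30% of the 10) stand against 36.8% of 16067 genes called in the same comparison by limma at an adjusted p under 0.05. The same 3 genes were the members whose libraries did not overlap between the groups, which held for 38.4% of all genes. The members' median difference was -0.23 on the log2(TPM + 1) scale, against 0.03 over all genes tested.

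Among the receptors, Nrp1, which binds Sema3a, was at 36.1 to 77.91 TPM in MexHT OSN (median 63.47) and at 78.68, 117.6 and 114.4 in HT OSN. The groups did not overlap, though the highest MexHT and the lowest HT library were less than 1 TPM apart. Nrp1 fell by 0.85 on the log2 scale (SE 0.25), with an adjusted p of 0.0221 in limma. The call was lost without HT OSN replicate 2 (adjusted p 0.0904) or replicate 3 (0.0775), and with the replicate number as a block (-0.58, adjusted p 0.0842). Nrp2, which binds Sema3f, was at 196.5 to 270.7 TPM in MexHT OSN (median 250.7) and at 230.9, 166.9 and 220.1 in HT OSN, with overlap and a difference of 0.22 (95% interval -0.12 to 0.55). Nrp1 and Nrp2 thus differed in sign, and the difference between them is given with the ratios below.

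Of the plexins, Plxna3 was at 36.78 to 64.91 TPM in MexHT OSN (median 45.01) and at 130.9, 136.8 and 108.9 in HT OSN. Every MexHT library was below every HT library by a wide gap. Plxna3 fell by 1.39 (SE 0.17, adjusted p 0.000445 in limma). It lies on the X chromosome, and the constructs differ in sex-linked RNA as given above. With the Xist level as a covariate its difference was -1.42 with an adjusted p of 0.0559, and that of Nrp1 -0.94 with an adjusted p of 0.261, in a fit that called 2.05% of all genes. Plxna1 was at 191.8 to 294.2 TPM in MexHT OSN (median 234.4) and at 162.6, 181.5 and 232.4 in HT OSN. Its groups overlapped, and its difference of 0.33 (95% interval -0.03 to 0.70) had an adjusted p of 0.139 in limma.

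Of the ligands, Sema3a was at 35.18 to 48.94 TPM in MexHT OSN (median 42.48) and at 14.9, 12.73 and 17.09 in HT OSN. The lowest MexHT library was above the highest HT library by more than the whole spread within either group. Sema3a rose by 1.44 on the log2 scale (SE 0.14), a 2.72-fold difference with an adjusted p of 0.000119 in limma, and ranked 81st by p among the genes tested. It kept its call under every alternative run for this comparison, among them the Xist covariate (1.68, adjusted p 0.0171). Sema3f was at 20.31 to 36.02 TPM in MexHT OSN (median 22.28) and at 28.77, 34.46 and 34.17 in HT OSN. Apart from replicate 5, every MexHT library lay below the HT range. The difference of -0.41 had an adjusted p of 0.0931 in limma with it and of 0.00643 without it (difference -0.52). Sema7a was at 116.0 to 219.6 TPM in MexHT OSN (median 134.3) and at 293.6, 330.1 and 91.23 in HT OSN. HT replicate 3 lay below all MexHT libraries while the other two lay above them, and the difference was -0.54 (adjusted p 0.263 in limma). Without HT OSN replicate 3 it was -1.13 with an adjusted p of 0.00597.

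For the ephrin pair, Efna5 was at 58.65 to 181.6 TPM in MexHT OSN (median 158.5) and at 117.4, 126.9 and 130.2 in HT OSN. The MexHT libraries fell on both sides of HT, replicates 5 and 6 below at 58.65 and 69.52 and the other 4 above at 153.3 or more, and the difference was -0.05 (95% interval -0.84 to 0.74). Its receptor Epha5 was at 10.53 to 49.5 TPM in MexHT OSN (median 32.68) and at 72.01, 78.71 and 46.65 in HT OSN. The groups overlapped at one MexHT library, and the difference of -1.19 (SE 0.44) had an adjusted p of 0.0548 in limma, just outside the threshold. It passed with median-of-ratios scaling (0.049), with voom (0.0473), with the replicate number as a block (-0.52, adjusted p 0.0453) and without MexHT OSN replicate 1, 2 or 5 (0.0347 to 0.0484), but not without any other single library (adjusted p up to 0.169), with 4 groups in one fit or with the Xist covariate (0.382). Robo2 was at 102.8 to 253.8 TPM in MexHT OSN (median 212.8) and at 112.7, 145.9 and 117.2 in HT OSN. Here too replicates 5 (102.8) and 6 (114.7) lay within or below the HT range and the other 4 above it, and the difference of 0.52 had an adjusted p of 0.184.

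The count of called members depended on those libraries. Without MexHT OSN replicates 5 and 6, 8 of 10 members were called, against 44.8% of all genes, and without replicate 5 alone 6 were, against 40.5%. These are also the libraries with the most Mex3a RNA (1271 and 678.8 TPM against 328.5 to 359.1 in the other 4), so leaving them out also removes the highest Mex3a levels. How much of this Mex3a RNA came from the construct was not tested. In the fit without both, Efna5 (0.40, adjusted p 0.00364), Robo2 (0.88, adjusted p 0.000672) and Nrp2 (0.34, adjusted p 0.0418) were higher in MexHT OSN, and Sema3f (-0.56, adjusted p 0.00331) and Epha5 (-0.71, adjusted p 0.0465) lower, by limma. Sema3a (1.45), Plxna3 (-1.27) and Nrp1 (-0.58) remained called. Mature OSN markers were lower and immature OSN markers higher in MexHT OSN (11 of 14 mature markers called lower, 9 of 14 immature markers called higher); their part in the members' differences was not tested. In bulk libraries such as these, fewer cells of a type and less RNA per cell cannot be told apart.

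**Figure D2:**
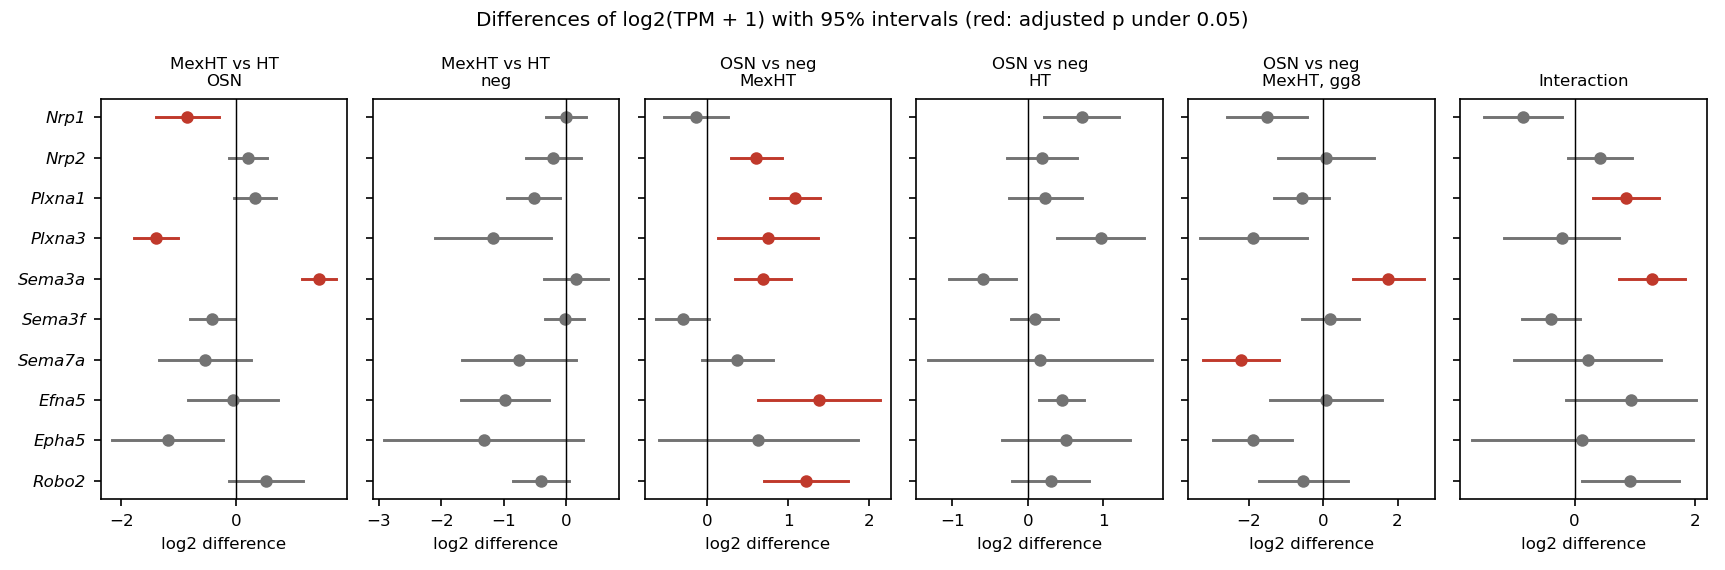
Difference of log2(TPM + 1) for each of the 10 genes (dots, horizontal axis) with its 95% interval in 6 fits; red marks an adjusted p under 0.05 and each panel has its own axis range. In the left panel Sema3a at 1.44 is the one member called higher, with Plxna3 at -1.39 and Nrp1 at -0.85 called lower.

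Of 87 other guidance genes, 76 were tested in OSN: 27 were higher in MexHT, 7 lower and 42 not called, where 19.9% of all genes were called higher and 16.8% lower. They had a median difference of 0.39 against 0.03 over all genes. Ephrins and Eph receptors other than the members were called higher in 8 of 17 cases and lower in none. They include the receptor Ephb2 (2.35, SE 0.41) at 48.2 against 8.24 TPM and the ligand Efnb1 (2.23, SE 0.22) at 20.2 against 3.44 TPM. The other semaphorins had 4 higher (Sema4f, Sema6a, Sema6b and Sema6d) and 1 lower of 14, the lower one being Sema3e (-1.31), a ligand of Plxnd1, at 9.13 against 23.8 TPM. The other plexins had 2 higher (Plxna2 and Plxnb2) and 2 lower (Plxnd1 and Plxnb3) of 7, with Plxnb3 the lowest (-2.09) at 1.98 against 12.0 TPM. Among 4 tested Slits and Robos, Slit1 fell and 3 were not called. Among 10 netrins and netrin receptors, 3 rose (Dcc, Neo1 and Rgmb) and Unc5b fell. Of these, the 4 semaphorins, Plxna2, Plxnb2, Plxnd1, Slit1, Dcc, Neo1, Rgmb and Unc5b were named after their values were seen. Intracellular effectors had 10 higher and 2 lower (Fes and Mical2, the latter also named after its value was seen) of 24, among them Srgap3 (1.89), a Slit-Robo GTPase-activating protein, and Fes (-1.85), a tyrosine kinase linked to semaphorin signalling and also expressed in myeloid cells. Immune cell markers were lower in MexHT OSN in 10 of 11 cases, 7 of them called; their part in the Fes value was not tested.

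In the mCherry-negative cells, which the construct should not mark, no member was called between MexHT and HT. Mex3a averaged 121.6 TPM in the MexHT and 54.01 in the HT negative cells, with overlap. Whether this was construct RNA was not tested, so the negative cells cannot be taken as free of it. Of 16860 genes tested there, 0% were called by limma, and voom also called no member, so the missing calls do not show that the members were alike. At an unadjusted p under 0.05 in limma, 3 of 10 members passed (Plxna1, Plxna3 and Efna5, each lower in MexHT), against 20.6% of all genes. The 5 MexHT and 3 HT libraries overlapped for all 10 members, where 8.71% of all genes did not overlap. Sema3a was at 37.2, 18.99, 30.15, 22.61 and 22.86 TPM in MexHT and at 25.66, 24.53 and 18.94 in HT negative cells, a difference of 0.16 (95% interval -0.35 to 0.67). That interval lies below the one for OSN (1.14 to 1.74). Nrp1 was at 61.25, 64.15, 66.19, 57.4 and 59.34 TPM in MexHT and at 53.86, 77.69 and 55.8 in HT, with a difference of 0.00 (95% interval -0.32 to 0.32). Plxna3 was at 32.77, 56.7, 18.7, 30.19 and 14.83 TPM in MexHT and at 68.43, 85.61 and 43.59 in HT. The MexHT values were mostly below the HT values as in OSN, and the difference of -1.18 (95% interval -2.10 to -0.25) had an adjusted p of 0.218 in limma. Efna5 (-0.98, 95% interval -1.69 to -0.28) and Plxna1 (-0.52, 95% interval -0.95 to -0.09) were also lower in MexHT without being called. Epha5 (-1.32), Sema7a (-0.76), Robo2 (-0.40) and Nrp2 (-0.20) were also negative and Sema3f was at -0.02, none of them called. In these negative cells all 14 mature OSN markers were lower in MexHT (-2.38 to -1.13, median -1.56). All 12 progenitor and cell cycle markers were higher (0.52 to 1.26, median 0.82), and no marker of either list was called. The part of these markers in the members' differences, here and in the interaction below, was not tested.

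The interaction of construct and cell fraction, fitted over 17 libraries, asks whether the OSN difference departs from that in negative cells. Sema3a passed (1.29, SE 0.26, adjusted p 0.00511 in limma), as did Plxna1 (0.85, SE 0.26, adjusted p 0.0402), so 2 of 10 members were called against 12.4% of 16785 genes. The Plxna1 value combines differences of 0.33 in OSN and -0.52 in negative cells, neither of them called. Plxna3 had an interaction of -0.22 (95% interval -1.17 to 0.74), and Nrp1 one of -0.85 (adjusted p 0.0779). Because OSN and negative cells of one number are the same mouse per the labels, the fit was repeated with the mouse as a block. There 4 members were called, against 15.5% of genes: Sema3a (1.33, adjusted p 0.0112), Robo2 (1.05, adjusted p 0.0283), Efna5 (1.09, adjusted p 0.0338) and Nrp1 (-0.73, adjusted p 0.0462), while Plxna1 lost its call (0.88, adjusted p 0.0629). Plxna1 also lost it without the low-value filter (adjusted p 0.0521), with another scaling (0.0522), with voom (0.0555) and without 9 of the 17 libraries in turn. Without MexHT OSN replicates 5 and 6 together, 4 members were called, against 16.6% of genes: Sema3a, Robo2, Efna5 and Sema3f.

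Comparisons of OSN with negative cells ask how the members differ between the mCherry-positive cells and all other sorted cells. By the markers above these others included connective tissue and immune cells, so a difference need not lie within the epithelium. In the MexHT mice of the gg8+OMP set, 6 of 10 members were higher in OSN and none lower, where 63.4% of 16522 genes were called and 35.8% were called higher. The libraries of 2 members, Plxna1 and Robo2, did not overlap, against 43.1% of all genes. Plxna1 was at 191.8 to 294.2 TPM in OSN and at 102.6, 144.6, 111.2, 118.5 and 90.59 in negative cells, a rise of 1.09 (SE 0.14, adjusted p 3.53e-05 in limma). It was higher in OSN in 5 of 5 mice. Robo2 was at 102.8 to 253.8 TPM in OSN and at 68.02, 95.84, 70.91, 81.59 and 66.74 in negative cells, a rise of 1.23 (SE 0.24, adjusted p 0.000678), also in 5 of 5 mice. Efna5 was at 49.97, 85.73, 33.57, 46.1 and 29.37 TPM in negative cells and rose by 1.38 (adjusted p 0.00374) in OSN, in 5 of 5 mice although the ranges of the groups overlapped.

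Sema3a rose by 0.69 (SE 0.16, adjusted p 0.00236 in limma) in MexHT OSN, again in 5 of 5 mice, and Nrp2, at 120.2, 177.6, 138.4, 151.1 and 200.6 TPM in negative cells, rose by 0.61 (adjusted p 0.0027), in 4 of 5. Plxna3 rose by 0.75 (adjusted p 0.0351), in 4 of 5 mice. That call was lost with another scaling (0.62, adjusted p 0.0746), with voom (0.60, adjusted p 0.0889) and without any one of 6 libraries. Epha5 differed by 0.63 (adjusted p 0.343), and with the mouse as a block by 0.76 (adjusted p 0.0339). Sema7a (0.38), Nrp1 (-0.13) and Sema3f (-0.30) were not called, and Sema3f was called lower without MexHT OSN replicate 5 (-0.41, adjusted p 0.00728). The other scaling moved the median of all genes in this comparison by -0.13, from 0.16 to 0.03, and relative to those medians each of the 6 differences stayed positive.

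In the HT mice 0 of 10 members were called in the unblocked fit, against 11.3% of 17027 genes; at an unadjusted p under 0.05, 34.2% of genes passed. Members whose libraries did not overlap were Nrp1, Plxna3, Sema3a and Efna5, 4 of 10 against 41% of all genes. With the mouse as a block, 4 members were called higher in OSN, against 29.2% of genes: Plxna3 (0.97, adjusted p 0.00983), Nrp1 (0.72, adjusted p 0.0162), Efna5 (0.45, adjusted p 0.0353) and Epha5 (0.50, adjusted p 0.0479). Each of these was higher in OSN in 3 of 3 mice. Sema3a ran the other way: it was at 25.66, 24.53 and 18.94 TPM in the negative cells of HT mice and at 14.9, 12.73 and 17.09 in their OSN. It was lower in OSN in 3 of 3 mice (-0.59, adjusted p 0.0828 in limma, and 0.0674 with the block). In the same mice Sema7a was at 223.6, 321.8 and 87.99 TPM in negative cells, so that mouse 3 was the lowest of the 3 HT mice in both fractions. The test of the difference between MexHT and HT is the interaction given above.

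**Figure D3:**
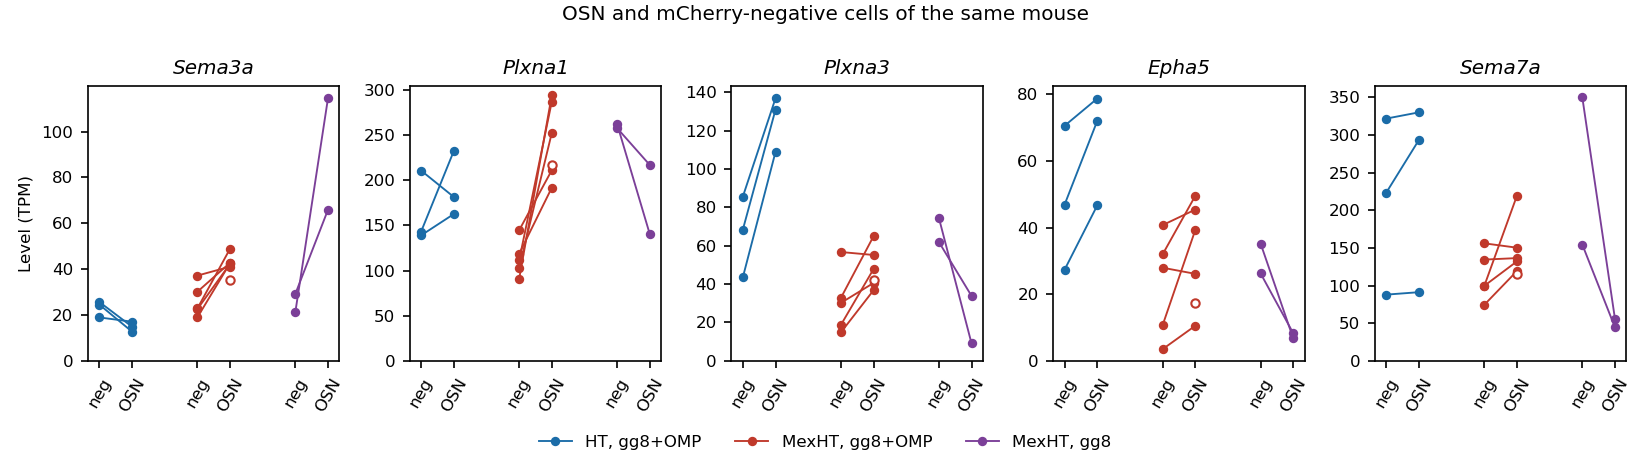
Level (TPM, vertical axis from 0) of 5 of the genes in the mCherry-negative and OSN libraries of the same mouse, joined by a line, for HT gg8+OMP (3 mice), MexHT gg8+OMP (5 mice, plus an open circle for OSN replicate 6) and MexHT gg8 (2 mice). Sema3a is lower in OSN than in negative cells in 3 of 3 HT mice and higher in 5 of 5 and 2 of 2 MexHT mice.

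In the gg8 mice, where the sorted cells are labelled immature OSN, Sema3a was higher and Sema7a lower than in negative cells, and the other 8 members were not called. This is 2 of 10 members against 8.32% of 16490 genes. Libraries of 6 members did not overlap, against 63.6% of all genes. Sema3a was at 66.0 and 114.8 TPM in OSN and at 29.27 and 21.47 in negative cells, a rise of 1.76 (SE 0.40, adjusted p 0.0467 in limma). Sema7a was at 44.39 and 55.41 TPM in OSN and at 154.4 and 349.8 in negative cells, and fell by 2.21 (SE 0.43, adjusted p 0.0343). Both calls are fragile with 2 mice: leaving out any one library but OSN replicate 1 ended the Sema3a call (adjusted p 0.125 to 0.443), leaving out any one ended the Sema7a call (0.0517 to 0.386), and the other scaling (0.0659), voom (0.0529) and a smaller pseudocount (0.0626) ended that of Sema3a. A fit that leaves a group with 1 library assumes that it varies like the other group.

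Epha5 was at 8.267 and 6.716 TPM in gg8 OSN and at 26.24 and 35.21 in negative cells (-1.89, adjusted p 0.0515 in limma). Over the settings run its difference was -2.11 to -1.69. An alternative fit with no library left out called it lower (adjusted p 0.0344, limma or voom). Plxna3 (33.83 and 9.096 against 61.94 and 74.52 TPM), Nrp1 (48.11 and 20.61 against 97.83 and 85.47) and Plxna1 (140.3 and 216.9 against 262.1 and 257.7) were also lower in OSN in both mice without being called. The OSN libraries of this pair differed widely: Efna5 was at 213.5 and 51.74 TPM, Robo2 at 177.9 and 60.57, and Nrp2 at 252.4 and 76.8, with replicate 1 the higher in each. Progenitor and cell cycle markers summed to 359 TPM in OSN replicate 1 and 1392 in replicate 2. Mature OSN markers summed to 1874 and 984 TPM in the same order. The part of this marker difference in the members' values was not tested. Sema3f was at 57.82 and 53.24 TPM in OSN and 54.21 and 43.01 in negative cells. Without OSN replicate 1, 5 members were called, against 22.8% of all genes. Mature OSN markers were lower in gg8 OSN than in the negative cells in 14 of 14 cases, 10 of them called, with Omp at 53.79 and 164.2 TPM in OSN against 1937 and 3561; their part in the members' values was not tested.

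Receptor and ligand levels were then set against each other within each library, as the log2 ratio of TPM + 1. Nrp1 against Nrp2 was -2.43 to -1.76 in MexHT OSN (median -1.98) and -1.54 to -0.50 in HT OSN, without overlap. The difference of means was -1.07, and the exact permutation test gave p = 0.0238, the smallest that 6 against 3 libraries allow. Nrp1 against Sema3a was -0.27 to 0.91 in MexHT OSN (median 0.56) and 2.33 to 3.11 in HT OSN. This was the widest gap of the 4 ratios, a difference of -2.30 (exact permutation p = 0.0238). In HT OSN Nrp1 was well above Sema3a in each library, while in MexHT OSN the levels were close. Since Nrp1 and Sema3a each separated the groups, in opposite directions, their ratio had to separate them too. Its p therefore adds nothing to the single genes. Epha5 against Efna5 was -2.51 to -1.83 in MexHT OSN and -1.46 to -0.68 in HT OSN, a difference of -1.14 (exact permutation p = 0.0238). In contrast to the single genes, this ratio did not set MexHT OSN replicates 5 and 6 outside the other 4.

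Nrp2 against Sema3f was 2.42 to 3.65 in MexHT OSN and 2.24 to 2.96 in HT OSN, with overlap (0.63, exact permutation p = 0.0952). In mCherry-negative cells the same 4 ratios differed between MexHT and HT by 0.20, -0.16, -0.34 and -0.18 in the order Nrp1 to Nrp2, Nrp1 to Sema3a, Epha5 to Efna5, Nrp2 to Sema3f, each with overlap. Nrp1 against Sema3a went up from negative cells to OSN in HT mice (1.31, no overlap) and down in MexHT mice of both drivers (-0.82 for gg8+OMP, with overlap, and -3.26 for gg8, without). In 2 against 2 libraries the exact test cannot go below p = 0.333, and in 3 against 3 not below 0.1. After adjustment over the 20 ratio tests none passed, the lowest adjusted p being 0.0794.

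**Figure D4:**
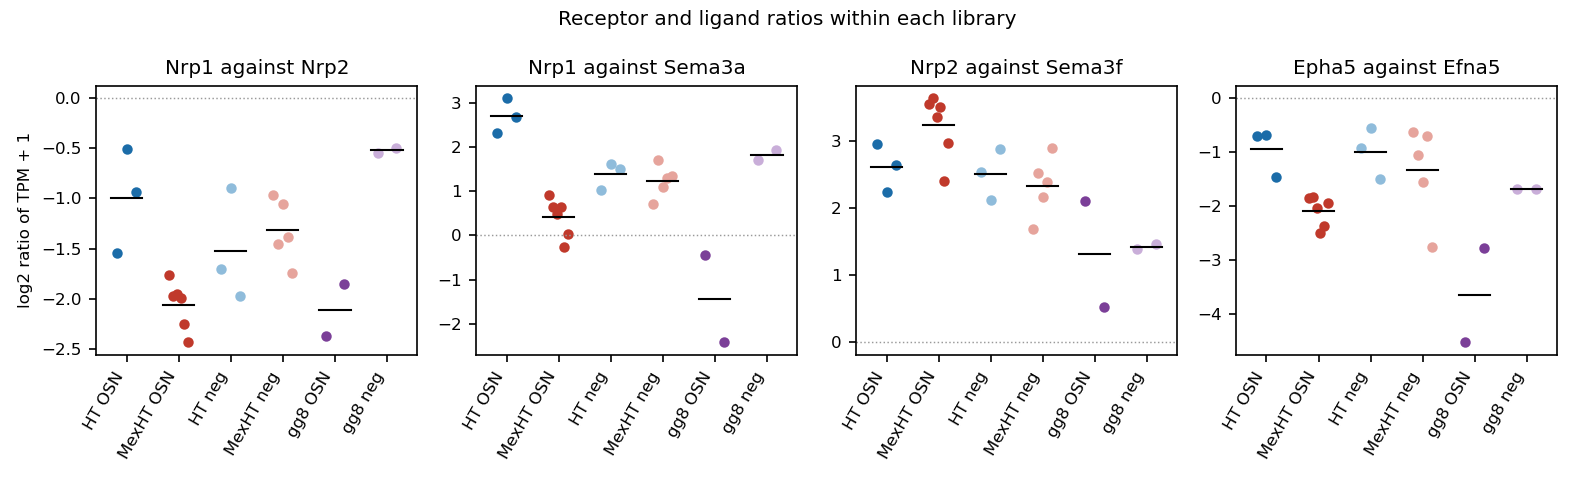
Log2 ratio of TPM + 1 within each library (dots) for 4 pairs of genes by group, with the group mean as a black line; 0 is equal levels. For Nrp1 against Sema3a the 3 HT OSN libraries lie at 2.33 to 3.11 and the 6 MexHT OSN libraries at -0.27 to 0.91.

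How the members varied with each other over the 17 gg8+OMP libraries is given as Pearson correlations, which share the libraries, their groups and their depth. Plxna3 and Epha5 varied most closely (0.88), with Efna5 and Robo2 (0.88), Plxna1 and Robo2 (0.77) and Efna5 and Epha5 (0.76) next. Sema3a ran against Nrp1 (-0.56) and Plxna3 (-0.46), and Sema3f against Nrp2 (-0.70) and Robo2 (-0.63). Among 12228 genes, those most like Epha5 were Gnal (0.989), the olfactory G protein subunit and one of the mature OSN markers, and Kcnmb3 (0.989). Those most like Plxna3 were Kcna2, Sdr42e1 and Crocc (each 0.985). Efna5 was most like Apba1 (0.979), Robo2 most like Gmcl1 (0.978), Plxna1 most like Dagla (0.952) and Sema3a most like Ctnnd1 (0.927). Nrp2 was most like Mtfmt (0.925), Nrp1 most like Opa1 (0.913), Sema7a most like Cmip (0.904) and Sema3f most like Dbt (0.862).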

How the data were processed

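Papain-dissociated sorted cells gave RNA (TRIzol) for low-input, stranded, total RNA libraries, per the labels' protocols. The authors deposited TPM per gene (read counts divided by transcript length and scaled to one total per library), in 2 tables. FastQC, cutadapt, STAR, bedtools and build mm10 are named per the submitters' processing notes; the counting program, annotation and use of strand are not given in the sources used here. Of the symbols, 27 per table that a spreadsheet had turned into dates were left out. TPM keep no depth as such, but the steps between low values gave whole counts (within 0.01 reads). The share was 100.0% of 23614 genes for gg8+OMP, where the step of a gene was itself chosen to give whole counts. For gg8 it was 99.86% of 22809 matched genes. On counts simulated from the gg8+OMP libraries, 98.19% of 23402 genes were recovered exactly. The recovered counts give the depth and the voom alternative. The precision of counting is limited by 81 reads at the least for a member.

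Each comparison used limma 3.58.1 (R 4.3.3) on log2(TPM + 1), keeping genes that averaged 1 TPM or more over the fitted libraries, with a mean trend, two-sided, adjusted by Benjamini-Hochberg over all genes tested, at a threshold of 0.05. Fold changes are on the log2(TPM + 1) scale and understate the change of low genes. All 10 members passed the filter in every comparison. Ratios were tested by exact permutation over libraries (Python 3.11.15), two-sided. On simulated data the OSN comparison recovered 50.9% of genes changed by 1 on the log2 scale and 98.9% of those changed by 2. For a change of 1, the comparison of MexHT and HT negative cells recovered 46.5%. OSN against negative cells recovered 74.7% in MexHT, 20.2% in HT and 4.46% in gg8 mice, so missing calls in the last 2 say little. The simulation gave all genes the same dispersion, which need not match these libraries. No 2 libraries of a group differed by as little as counting noise (chi-square per degree of freedom 3.53 to 127 over 33 pairs).

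The members, the other gene lists and the tests were chosen with earlier results of these data known. Named besides the 10 members are guidance genes with the largest called differences (at least 5 TPM in the higher group) and the genes most correlated with each member. The comparisons share libraries, so their member values are not independent. Alternatives were a pseudocount of 0.1, no filter, median-of-ratios scaling, voom with TMM scaling, the replicate number or mouse as a block, a fit of 4 groups together, Xist as a covariate, and leaving out each library; leaving out MexHT OSN replicates 5 and 6 together was added after seeing the data. OSN and negative libraries of one number are the same mouse per the labels. Their deviations from the group means correlated at 0.185, 0.275, -0.113, 0.0952 and 0.421 in MexHT gg8+OMP mice 1 to 5. In HT mice 1 to 3 the correlations were 0.183, 0.308 and 0.475. For MexHT OSN replicates 1 and 3 and HT OSN replicate 1, a negative library of another number correlated better. For the negative cells of MexHT and HT mice, libraries with the same number varied together (correlations 0.343, 0.417 and 0.23), though they are different mice.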

Additional observations from a re-analysis of the deposited data

Results flagged for a closer look

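Sema3f in MexHT OSN replicate 5 was at 36.02 TPM, far above the other MexHT OSN libraries at 20.31 to 24.5. It was 1 of 20 sets of member and group checked for a library far from the rest, by a 95% critical value, which by its definition about 1 in 20 sets pass by chance.

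The difference between MexHT and HT mice departed between OSN and mCherry-negative cells, by the interaction test in limma, for Sema3a (1.29, adjusted p 0.00511) and Plxna1 (0.85, adjusted p 0.0402). Between MexHT and HT, Sema3a differed by 1.44 in OSN and by 0.16 in negative cells. Plxna1 differed by 0.33 in OSN and by -0.52 in negative cells, and neither Plxna1 difference was called. With the mouse as a block, Sema3a kept its call (1.33, adjusted p 0.0112) and Plxna1 lost it (0.88, adjusted p 0.0629). For Plxna1, OSN were above negative cells by 1.09 in MexHT gg8+OMP mice (5 of 5 pairs) and differed by -0.57 in MexHT gg8 mice (0 of 2 pairs higher). The difference between these drivers was not tested, since the tables were scaled separately and carry different library dates.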

How the results depend on the processing

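The rise of Sema3a in MexHT OSN against HT OSN kept its call over the settings run, at 1.34 to 1.68 (adjusted p 3.53e-05 to 0.0171 in limma and voom). The number of members called in that comparison, 3 of 10 against 36.8% of all genes, became 5 with voom (35.5% of all genes called in the same fit), 6 with the replicate block (29.9%), 1 with Xist as a covariate (2.05%), 8 without MexHT OSN replicates 5 and 6 (44.8%, added after seeing the data) and 2 to 6 leaving out one library (24.5% and 40.5%). Under the block Nrp1 lost its call and Efna5 (0.44), Robo2 (0.90), Sema3f (-0.58) and Epha5 (-0.52) gained one. In HT OSN against negative cells, 0 became 1 with median-of-ratios scaling (11.6% of all genes), 4 with the replicate block (29.2%) and 0 to 3 leaving out one library, the 3 without HT negative replicate 2 (24.5%). In gg8 OSN against negative cells, 2 became 1 with a pseudocount of 0.1 (3.92% of all genes) and 0 to 5 leaving out one library (0% and 22.8%). For the interaction, 2 became 1 without the filter (8.25% of all genes), 1 with voom (9.79%), 4 with the replicate block (15.5%), 4 without MexHT OSN replicates 5 and 6 (16.6%), and 1 to 3 leaving out one library (7.14% to 14.8%). Its share of higher calls among all genes called was 56.8%, and 40.4% with median-of-ratios scaling. The causes were not tested, except that fits without a library have fewer samples.

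In the replicate block fit of MexHT against HT OSN, replicates 4 to 6 have no HT partner, so that the difference rests on 3 pairs of different mice. Their same-number correlations were 0.113, 0.133 and -0.234, and not every library correlated best with its own number. The paired fits of OSN and negative cells changed no call beyond those in the report.

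Signs turned for members that were not called in the reported fits. Efna5 in OSN (-0.05) went to 0.44 with the replicate block, 0.13 with the Xist covariate, 0.40 without MexHT OSN replicates 5 and 6, and -0.17 to 0.16 leaving out one library. In negative cells of MexHT against HT mice, Nrp1 (0.00) went to 0.000117 with a pseudocount of 0.1, 0.063 with median-of-ratios scaling, 0.041 with voom, 0.051 with the replicate block and -0.095 to 0.165 leaving out one library. There Sema3f went to 0.039, 0.021 and 0.075 with that scaling, voom and the block, and -0.094 to 0.027 leaving out one library, and Nrp2 to 0.075 with the Xist covariate. Between MexHT OSN and negative cells, Nrp1 went to 0.14 without MexHT OSN replicates 5 and 6. In the gg8 mice Efna5 went to -0.0092 with median-of-ratios scaling, -0.028 with voom and -0.94 to 1.08 leaving out one library. There Nrp2 went to -0.015 with voom and -0.77 to 0.93 leaving out one library, and Robo2 (-0.53) to -1.30 to 0.24. In HT mice Sema7a went to -0.37 to 0.75 leaving out one library. Of the interactions, Epha5 went to -0.0040 with voom and -0.38 to 0.48 leaving out one library, Plxna3 to -0.43 to 0.051 and Sema7a to -0.37 to 0.75.

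Ratios that turned did so leaving out one library. Between the constructs in negative cells these were Epha5 to Efna5 (-0.60 to 0.011), Nrp1 to Nrp2 (-0.018 to 0.52) and Nrp2 to Sema3f (-0.38 to 0.0010). Between OSN and negative cells they were Epha5 to Efna5 (-0.20 to 0.31) and Nrp2 to Sema3f (-0.095 to 0.29) in HT mice, and Nrp2 to Sema3f in gg8 mice (-0.91 to 0.68).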
